A study of Mus musculus with 4 samples.

Results

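Activated fibro-adipogenic progenitors (FAPs) marked by Tnc, Adam12 and Col8a1 were described in single-cell RNA libraries of skeletal muscle from a mouse model of Duchenne muscular dystrophy (DMD). FAPs are the Pdgfra-positive mesenchymal cells that lie between muscle fibres. They were taken as barcodes with at least 200 detected genes, at most 20% mitochondrial unique molecular identifiers (UMIs, one per captured transcript), at least 1 Pdgfra UMI, at least 100 UMIs of Col1a1, Col1a2, Col3a1 and Dcn together, 0 UMIs of the leukocyte gene Ptprc and at most 2 of the tenocyte gene Tnmd. A FAP was called activated when it had fewer than 5 UMIs of the progenitor genes Pi16 and Dpp4 together and an activation score of at least 2, the score being the UMIs of Tnc, Adam12 and Col8a1 per 10000 UMIs of the cell. There were 405 activated FAPs in the 2 bulk libraries, whose barcodes are part of 6512 in 4 libraries. The muscle of LNP-CRISPR mice gave 173 of them and the muscle of vehicle mice gave 232, each in 1 library of the isolation that the labels call bulk.

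LNP-CRISPR stands for lipid nanoparticles carrying a CRISPR editor, and the study asked which cells of the muscle they reach. The LNP-CRISPR bulk group and the vehicle bulk group are both of the DMD model. Their labels give neither the mutation, strain, age or number of the mice nor the dose, route and time of treatment, and no healthy muscle was analysed here. The other 2 libraries came from a satellite cell isolation kit and held 4 barcodes that met the rule with LNP-CRISPR and 0 with vehicle.

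In injured or dystrophic muscle FAPs leave rest, divide, lay down matrix and release signals that act on leukocytes and on muscle stem cells. Tenascin C (Tnc) is a matrix glycoprotein that is deposited transiently in wounds and in regenerating muscle. Adam12 is a membrane metalloprotease known to mark a profibrotic, injury-induced stromal cell, and Col8a1 is a short-chain collagen of remodelling tissue. Other FAPs served for comparison, namely the parenchymal ones with a score under 2 (79 in LNP-CRISPR muscle and 147 in vehicle muscle) and the progenitor ones with at least 5 UMIs of Pi16 and Dpp4 (131 in LNP-CRISPR muscle and 231 in vehicle muscle).

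The 2 bulk libraries held 25921795 UMIs in 1317 barcodes with LNP-CRISPR and 33801488 UMIs in 1305 barcodes with vehicle, and 1152 and 1204 barcodes passed the filters. No barcode sequence was shared between these 2 libraries. Levels are UMIs summed over the cells of a group per 1000000 nuclear-encoded UMIs (CPM). With 1 library per group no test could be run, so every interval below is a 95% interval that covers counting error only. A gene is said to pass 2-fold when it had at least 50 UMIs over both groups compared and differed at least 2-fold both in the sum and without the highest cell of each group.

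Activated cells made up a slightly larger share of FAPs in LNP-CRISPR muscle and a smaller share of all cells. They were 45.2% of 383 FAPs in LNP-CRISPR muscle (exact binomial interval 40.1% to 50.3%) and 38.0% of 610 FAPs in vehicle muscle (34.2% to 42.0%). The ratio of these shares was 1.19, with an interval of 0.970 to 1.45 that includes 1. Of all kept cells they were 15.0% in LNP-CRISPR muscle and 19.3% in vehicle muscle, a ratio of 0.779 (0.636 to 0.953). Leukocyte barcodes with Ptprc and without Pdgfra made up 35.8% of kept cells in LNP-CRISPR muscle and 25.5% in vehicle muscle, and their part in the second ratio was not tested.

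The 3 genes that chose the cells behaved alike in both libraries, and their levels are a description of the choice. In activated FAPs Tnc stood at 1166 CPM with LNP-CRISPR and 905 CPM with vehicle, Col8a1 at 889 and 784 CPM, and Adam12 at 169 and 161 CPM. Parenchymal FAPs held 8.03 and 8.64 CPM of Tnc in the LNP-CRISPR and vehicle libraries. All 3 genes were detected in 64.2% of activated FAPs in LNP-CRISPR muscle and in 65.1% in vehicle muscle, while 16 cells and 32 cells had Col8a1 alone. The median score was 9.54 in LNP-CRISPR muscle and 10.1 in vehicle muscle. The cells just inside the threshold had scores of 2.01 to 2.15 in LNP-CRISPR muscle and 2.06 to 2.13 in vehicle muscle, and those just outside had 1.92 to 1.99 and 1.90 to 1.98. Activation genes were not limited to these cells, since 70.2% of progenitor FAPs in LNP-CRISPR muscle and 61.0% in vehicle muscle also reached a score of 2.

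The markers of other cell types were mostly low. Pdgfra, the receptor that defines FAPs and that the rule required, was at 456 CPM in LNP-CRISPR muscle and 461 CPM in vehicle muscle. It was at 772 and 815 CPM in parenchymal FAPs and at 448 and 520 CPM in progenitor FAPs. The rule also capped the tenocyte marker Tnmd and the leukocyte marker Ptprc, so their low levels describe the choice. None of 6 endothelial, 6 glial or 6 myogenic markers reached 10 CPM in activated FAPs. Of 7 mural markers Cspg4 (38.5 CPM with LNP-CRISPR and 49.0 CPM with vehicle) and Notch3 (16.6 and 12.3 CPM) did, while the pericyte and smooth muscle markers Rgs5, Kcnj8, Abcc9 and Myh11 stayed under 1 CPM. Of 7 tenocyte markers only Thbs4 (2392 CPM with LNP-CRISPR and 1783 CPM with vehicle) and Fmod (39.3 and 34.2 CPM) did, and the tendon factors Scx and Mkx and the keratan sulfate proteoglycan gene Kera stayed under 5 CPM. At least 3 UMIs of the endothelial, mural, glial, myogenic or leukocyte list were nevertheless found in 61 of 173 activated FAPs of LNP-CRISPR muscle and 98 of 232 of vehicle muscle, mostly of the mural list (47 and 82 cells). The 8 leukocyte markers summed to 30.3 CPM with LNP-CRISPR and 22.9 CPM with vehicle. Thbs4, thrombospondin 4, was thus abundant in cells where the defining tendon genes were near 0. This was not particular to activated FAPs. In the LNP-CRISPR and vehicle libraries the highest tenocyte marker was at 2019 and 2172 CPM in progenitor FAPs. In parenchymal FAPs it was at 388 and 216 CPM.

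Compared with parenchymal FAPs, activated FAPs held more transcripts of the cell cycle, of wound matrix, of contractile filaments and of glycolysis, and fewer of complement and of resting stroma. This contrast shares its cells with the rule, so it describes the state and supports nothing. Of 9346 genes measured in both libraries, 306 were higher past 2-fold in both (3.27%) and 184 were lower (1.97%). Depth moved with the contrast. The median activated FAP held 38692 UMIs in LNP-CRISPR muscle and 42301.5 in vehicle muscle, and the median parenchymal FAP held 22274 and 21228. In a comparison chosen after seeing these depths, only FAPs with 15000 to 40000 UMIs were kept, with medians of 30194 UMIs in activated and 24522.5 in parenchymal FAPs of LNP-CRISPR muscle and 26802 and 24363 in vehicle muscle. Then 71 of the 306 higher genes stayed at least 2-fold higher by the sum alone in both libraries, and 221 kept their direction. Of the 184 lower genes 30 stayed at least 2-fold lower by the sum alone, and 175 kept their direction. With the full rule for passing 2-fold applied anew to these cells, 26 genes were higher in both libraries and 27 were lower. Without the FAPs that held at least 3 UMIs of another type's list, 110 genes were higher past 2-fold in both libraries and 104 were lower. That limit of 3 UMIs was not scaled to depth, and the part of depth in these counts was not tested.

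**Figure D1:**
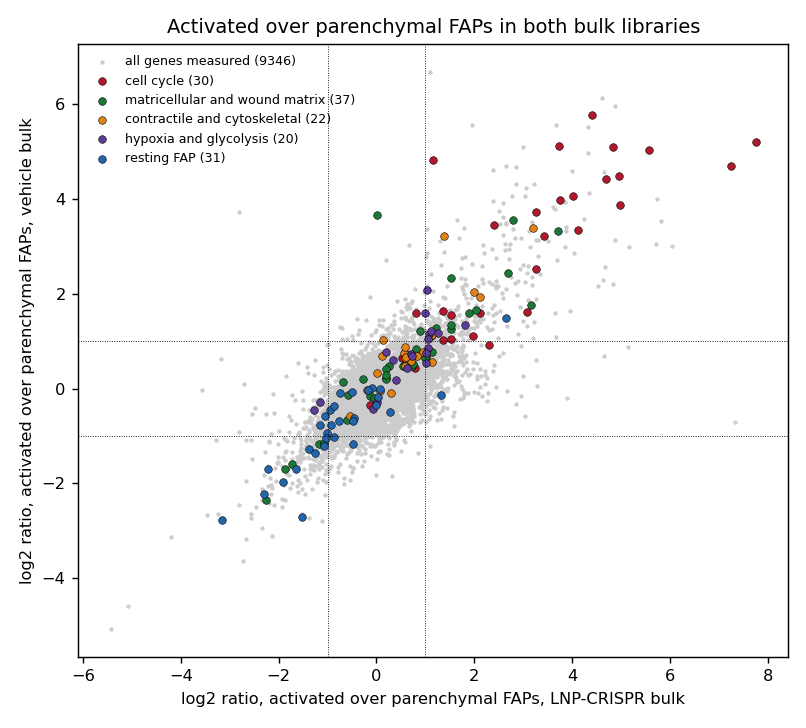
Each point is a gene, with its log2 ratio of activated over parenchymal FAPs in the LNP-CRISPR bulk library on the x axis and in the vehicle bulk library on the y axis. Dotted lines mark 2-fold. The cell cycle list lies at the upper right with medians of 3.17 and 3.28, and the resting FAP list lies mostly below 0.

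Cell cycle transcripts made up the widest differences. Of 30 measured cell cycle genes 24 were higher past 2-fold in both libraries and none was lower. Mki67, a nuclear protein of cycling cells, was at 145 CPM in activated and 10.5 CPM in parenchymal FAPs of LNP-CRISPR muscle, and at 130 and 8.0 CPM in vehicle muscle. The named genes with the largest folds act in mitosis, among them the kinetochore genes Cenpf and Cenpe, the spindle checkpoint kinase Bub1, the cyclin Ccnb1, the kinase Plk1, the checkpoint target Cdc20 and the ubiquitin enzyme Ube2c, and further Hmmr, Kif2c, Knstrn, Cenpa and Kif11. Cenpf had 496 UMIs in activated and 0 in parenchymal FAPs of LNP-CRISPR muscle, at least 36.2-fold more when set against 3 counts, and 39.4-fold more in vehicle muscle. After every cell had been thinned to 10000 UMIs, at least 3 UMIs of Mki67, Top2a, Cdk1, Ccnb1 and Birc5 were found in 17.0% of activated FAPs of LNP-CRISPR muscle (interval 11.5% to 23.7%) and 17.3% of those of vehicle muscle (12.5% to 22.9%). The same share was 5.71% and 2.38% in parenchymal FAPs and 9.23% and 6.28% in progenitor FAPs. Cycling cells were also the deep ones, with at least 5 such UMIs in 43.9% of the deepest 57 activated FAPs of LNP-CRISPR muscle and in 1.72% of the shallowest 58. Within 15000 to 40000 UMIs the list had a median log2 ratio of 0.13 in LNP-CRISPR muscle and 2.51 in vehicle muscle. By the sum alone 8 of its 30 genes stayed at least 2-fold higher in both. Top2a turned over there in LNP-CRISPR muscle, with a log2 ratio of -2.20, against 3.86 in vehicle muscle.

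Wound matrix genes were higher in part, while most collagens were not. Of 37 matricellular and wound matrix genes 11 were higher past 2-fold in both libraries and 4 were lower. Postn, periostin, was at 4363 CPM in activated and 1062 CPM in parenchymal FAPs of LNP-CRISPR muscle, and at 3228 and 1024 CPM in vehicle muscle. Cthrc1, a secreted protein of matrix-forming fibroblasts, was 6.52-fold and 5.44-fold higher in the LNP-CRISPR and vehicle libraries. Ltbp2, a latent TGF-beta binding protein family member, was 13.6-fold and 10.1-fold higher. The connective tissue factors Ccn2, Ccn4 and Ccn5, the fibroblast surface gene Lrrc15, the proteoglycan Aspn, the crosslinking enzymes Lox and Loxl3 and the prolyl hydroxylase P4ha3 completed the higher members. Ccn3, Comp, Serpine2 and Ecm1 were the lower ones, and of 16 other collagens only Col12a1 passed. Within 15000 to 40000 UMIs Postn kept log2 ratios of 1.55 and 1.41, Cthrc1 of 1.27 and 2.08 and Ltbp2 of 2.12 and 2.54, in the LNP-CRISPR and vehicle libraries.

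Contractile and glycolytic genes were also higher. Of 22 contractile genes 5 were higher past 2-fold, namely the smooth muscle actin Acta2, the actin binders Tagln, Tpm1 and Tpm2, and the LIM protein Csrp2. Acta2, the usual marker of myofibroblasts, was at 87.3 CPM in activated and 9.26 CPM in parenchymal FAPs of LNP-CRISPR muscle, and at 102 and 9.60 CPM in vehicle muscle. The mural list summed to 59.5 CPM in activated and 56.8 CPM in parenchymal FAPs with LNP-CRISPR, and to 64.9 and 70.1 CPM with vehicle. At least 3 UMIs of it were found in 27.2% of activated and 12.7% of parenchymal FAPs with LNP-CRISPR. With vehicle these shares were 35.3% and 17.0%. The part of mural RNA in the contractile difference was not tested. Of 20 hypoxia and glycolysis genes 5 passed, all glycolytic enzymes (Gapdh, Pgk1, Pgam1, Eno1 and Pkm, 2.08-fold to 3.52-fold higher). By the sum alone, none of these 5 enzymes stayed at least 2-fold higher in both libraries within 15000 to 40000 UMIs. Of the 5 contractile genes only Csrp2 did (log2 ratios of 1.94 and 1.34).

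Signals that reach beyond the FAP differed too. Inhba, which encodes the activin A subunit, was at 302 CPM in activated and 51.9 CPM in parenchymal FAPs of LNP-CRISPR muscle, and at 729 and 65.3 CPM in vehicle muscle. Il1rl1 encodes ST2, the receptor for interleukin 33, and was 60.7-fold and 11.7-fold higher in activated FAPs in the LNP-CRISPR and vehicle libraries. The LNP-CRISPR fold rests on few Il1rl1 UMIs in parenchymal FAPs, so its size is uncertain. The neutrophil-attracting chemokine Cxcl5 was 2.84-fold and 2.76-fold higher. Pdgfa, a ligand of Pdgfra, and Bmp6 were higher among 25 growth factors, and Igf2, Bmp4 and Gdf10 were lower. Inhba kept log2 ratios of 2.75 and 2.44 within 15000 to 40000 UMIs, and Il1rl1 kept 6.45 and 2.56. The value of 6.45, from LNP-CRISPR muscle, also rests on few Il1rl1 UMIs in parenchymal FAPs.

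Genes of resting stroma were lower. Of 31 resting FAP genes 9 were lower past 2-fold in both libraries and 1, the annexin Anxa3, was higher. Gsn, an actin-severing protein abundant in resting FAPs, was at 2523 CPM in activated and 9542 CPM in parenchymal FAPs of LNP-CRISPR muscle, and at 2853 and 11164 CPM in vehicle muscle. C3, the central complement component, was at 97.2 CPM in activated and 455 CPM in parenchymal FAPs with LNP-CRISPR, and at 131 and 427 CPM with vehicle. The complement component C4b, Mgp, Penk, Clec3b, Cd55 and Scara5 were also among the lower members. Outside the list the largest folds downward were those of Cyp2f2, a cytochrome P450, and Clu, the secreted chaperone clusterin. Cyp2f2 stood at 0.0219 of its parenchymal level in LNP-CRISPR muscle and 0.0288 in vehicle muscle, and Clu at 0.0290 and 0.0414. The naming rule also took Olfml2a, Robo2, the basement membrane collagen Col4a4, the TGF-beta family ligand Gdf10 and Myoc, at 0.0796 to 0.170 of the parenchymal level. Cyp2f2 and Clu kept log2 ratios below -3 in both libraries within 15000 to 40000 UMIs.

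The remaining lists gave few genes past 2-fold in both libraries. They were 2 of 37 higher (Cxcl5 and Il1rl1) and 3 lower (Saa3, Lcn2 and Steap4) for NF-kB and acute inflammation, 0 higher and 3 of 37 lower (Ifit1, Ifi47 and Gbp2) for interferon response, 2 of 33 lower (Fos and Fosb) for immediate early and heat shock genes, and 2 higher (Plk2 and Ddit4) and 1 lower (Trp53inp1) of 24 p53 targets. Of 21 TGF-beta signalling genes 2 were higher, Inhba among them, and Ltbp4 was lower. Of 30 proteases and inhibitors Mmp9 was higher and Adamts12 and Timp3 were lower, and of 20 matrix receptors Itga8 and Itgb8 were lower. Of 13 adipogenic genes Fabp5 was higher and Lpl lower, and of 24 secretory pathway genes Sec61b was higher. Of 18 particle uptake genes 4 were lower, among them the scavenger receptors Scara3 and Scara5 and the lipoprotein component Apoe. Against progenitor FAPs activated FAPs differed less, with 40 of 9955 genes higher past 2-fold in both libraries (0.402%) and 91 lower (0.914%). The matricellular list had a median log2 ratio to progenitor FAPs of 0.09 in LNP-CRISPR muscle and 0.00 in vehicle muscle, and the hypoxia and glycolysis list of 0.19 and 0.21. Other lists lay further apart in the LNP-CRISPR and vehicle libraries. Their medians were -0.74 and -0.99 for resting FAP genes, 0.28 and 1.03 for the cell cycle and 0.32 and 0.45 for contractile genes.

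Cas9 transcripts were detected in most activated FAPs of LNP-CRISPR muscle, at a lower level per UMI than in other FAPs. Activated FAPs held 7948 Cas9 UMIs, or 1074 CPM (Poisson interval 1050 to 1098), against 2532 CPM in parenchymal FAPs, 2204 CPM in progenitor FAPs and 938 CPM in leukocytes. In leukocytes 1 barcode held 1573 of 4549 Cas9 UMIs. Without the highest cell of each group the levels were 958, 2082, 2024 and 615 CPM in the same order. No Cas9 UMI was found in 232 activated FAPs of vehicle muscle, where 3 counts, taken as the limit that a count of 0 allows, come to 0.299 CPM and the Poisson interval reaches 0.368 CPM. The level in activated FAPs was 0.424 of that in parenchymal FAPs (0.408 to 0.440) and 0.487 of that in progenitor FAPs (0.473 to 0.502). Cas9 had no part in the choice of the cells.

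The difference depended on how Cas9 was counted. Per cell, activated FAPs held a mean of 45.9 Cas9 UMIs and parenchymal FAPs 51.9, a ratio of 0.885 (0.852 to 0.919), activated FAPs being the deeper ones. The medians were further apart, at 4 UMIs in activated, 16 in parenchymal and 16 in progenitor FAPs. At least 1 Cas9 UMI was found in 89.6% of activated and 94.9% of parenchymal FAPs, and in 52.9% of leukocytes at a median depth of 8919.5 UMIs. Free RNA was not removed, and its part in these shares was not tested. The 58 activated FAPs with least Cas9 per UMI held a mean of 1.22 Cas9 UMIs at a median depth of 46016.5 UMIs. The share with 4 UMIs or more was 57.2% in activated FAPs (49.5% to 64.7%), 81.0% in parenchymal FAPs (70.6% to 89.0%), 75.6% in progenitor FAPs and 22.6% in leukocytes. After thinning to 1000 UMIs per cell a Cas9 UMI was left in 34.7% of activated, 59.5% of parenchymal and 49.6% of progenitor FAPs. Within 15000 to 40000 UMIs the ratio to parenchymal FAPs was 0.678, and with every cell weighed equally it was 0.648, so it stayed below 1 by each of these counts.

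**Figure D2:**
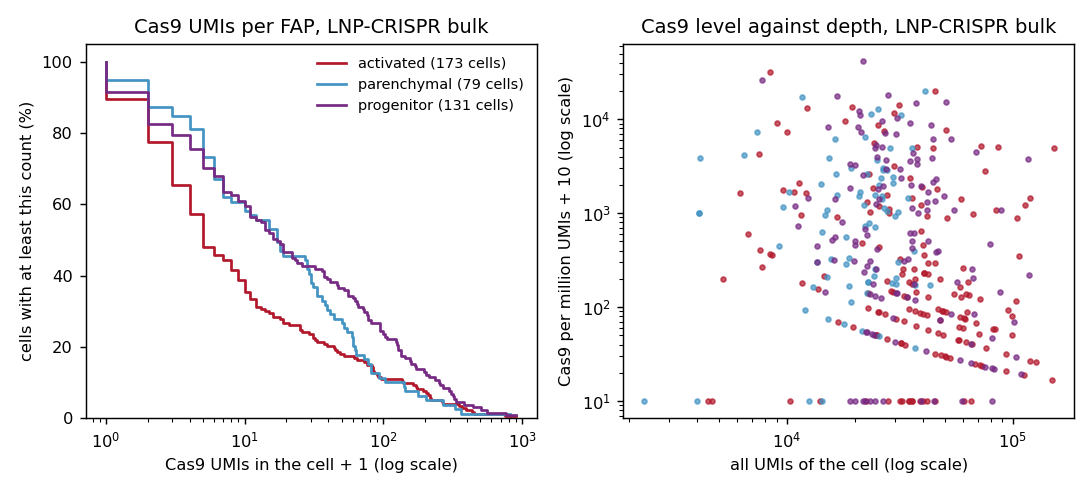
Left, the share of FAPs of the LNP-CRISPR bulk library (y axis, percent) that hold at least a given number of Cas9 UMIs (x axis, UMIs + 1, log scale), for activated, parenchymal and progenitor FAPs; right, Cas9 per 1000000 UMIs + 10 of each cell against its UMIs, both on log scales, in the same colours. The curve of activated FAPs is the lowest at 4 and at 20 UMIs, where it passes 57.2% and 26.6%, and the medians are 4, 16 and 16 UMIs.

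Cas9 was spread unevenly among activated FAPs. The 10% of these cells richest in it held 73.7% of their Cas9 UMIs, and the highest cell held 898. Its order over the cells depended on whether it was given per UMI or per cell. The 58 cells of lowest score had 1790 CPM, the 58 of middle score 1419 CPM and the 57 of highest score 435 CPM, with 46.7, 66.6 and 24.1 Cas9 UMIs per cell. The shallowest 58 cells had 2495 CPM, the middle 58 had 1092 CPM and the deepest 57 had 723 CPM, with 43.6, 40.8 and 53.6 Cas9 UMIs per cell. Score and depth were themselves correlated (Spearman rho 0.56 over 173 cells of 1 library), and Cas9 per UMI correlated with the score at -0.25 and with depth at -0.27, while Cas9 UMIs per cell correlated with depth at 0.02, so the order by score and the order by depth cannot be told apart here.

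Between the treatments, activated FAPs differed in few genes, and the inflammatory ones stood out in number. In LNP-CRISPR muscle 42 of 10710 genes were higher past 2-fold than in vehicle muscle (0.392%) and 67 were lower (0.626%). The ratio was above 1 for 47.6% of genes, and the median log2 ratio was -0.01. Of 38 measured NF-kB and acute inflammation genes 33 had a ratio above 1, 7 passed 2-fold upward and 2 downward, and the median log2 ratio was 0.52. Interferon response genes were mostly higher by small amounts. With 1 library per treatment, treatment and library cannot be told apart.

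The NF-kB list holds chemokines, cytokines and feedback inhibitors that this transcription factor family induces. Cxcl10, a chemokine for T cells, was at 426 CPM in LNP-CRISPR and 133 CPM in vehicle activated FAPs, a ratio of 3.20 (3.01 to 3.42), and was detected in 56.1% and 35.8% of them. Il6, the cytokine interleukin 6, was at 1098 and 472 CPM, a ratio of 2.32 (2.24 to 2.41). Ptx3, a soluble pattern recognition protein, was at 2030 and 919 CPM, a ratio of 2.21 (2.15 to 2.27). Il6 was detected in 89.6% of LNP-CRISPR and 69.4% of vehicle cells, and Ptx3 in 91.9% and 82.8%. Without the highest cell of each library the ratios were 2.34 for Il6 and 2.16 for Ptx3. Tnip1, which encodes an inhibitor of NF-kB signalling, was at 70.9 and 34.0 CPM, a ratio of 2.09 (1.82 to 2.40).

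The other 3 that passed were found in few cells. Saa3, an acute-phase serum amyloid, was at 155 CPM with LNP-CRISPR and 11.0 CPM with vehicle, but 909 of its 1145 LNP-CRISPR UMIs came from 1 cell, it was detected in 17.3% of LNP-CRISPR and 2.16% of vehicle cells, and without the highest cells the ratio was 12.8. Csf2, the growth factor GM-CSF, was at 49.3 and 10.1 CPM and was detected in 8.67% and 1.72% of cells. Ccl20, a chemokine for lymphocytes and dendritic cells, was at 52.4 and 0.797 CPM and was detected in 7.51% and 0.862% of cells. The most abundant chemokines of the list did not reach 2-fold. Cxcl1, which attracts neutrophils, was at 5504 CPM with LNP-CRISPR and 3773 CPM with vehicle (ratio 1.46), Cxcl2 was at 1961 and 1214 CPM (1.61), and the monocyte chemokine Ccl2 was at 3749 and 2824 CPM (1.33).

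**Figure D3:**
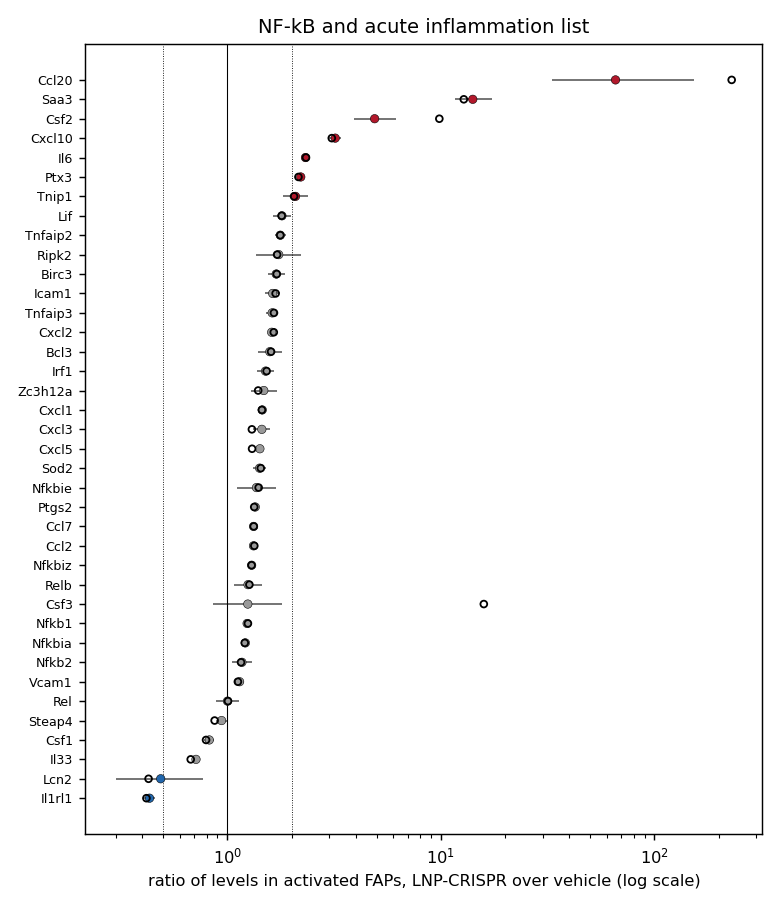
Ratio of levels in activated FAPs, LNP-CRISPR over vehicle (x axis, log scale), for the 38 measured genes of the NF-kB and acute inflammation list; lines are 95% counting intervals, filled points the summed ratio (red past 2-fold higher, blue past 2-fold lower, grey neither) and open circles the ratio without the highest cell of each library. Of the 38 genes 33 lie above 1, and the open circles of Ccl20, Csf2 and Csf3 lie far from their filled points.

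Il1rl1 and Lcn2 went the other way. Il1rl1 was at 225 CPM in LNP-CRISPR and 520 CPM in vehicle activated FAPs, a ratio of 0.433 (0.409 to 0.457), and was detected in 37.0% and 47.0% of them. Lcn2, the iron-sequestering protein lipocalin 2, had 27 UMIs with LNP-CRISPR and 75 with vehicle, and its direction turned when the score threshold was 3 (log2 ratio 0.17). Inhba was also lower, at 302 and 729 CPM, a ratio of 0.415 (0.396 to 0.435). Within 15000 to 40000 UMIs Inhba had a log2 ratio of 0.35.

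The promoters of 3 of the higher genes are shown because the list is defined by a factor with a known DNA motif. Sequences are from RefSeq (build GRCm38.p6), run 5′ to 3′ on the gene's strand from 250 bases before to 50 after the listed start, and have in capitals each match on either strand to the kB motif that NF-kB binds. It was searched in 3 forms of 10 bases, which are those of the 2 runs of capitals in Cxcl10 and the run in Il6, with the fourth and the fifth base free to vary. The windows are chr5:92348840-92349139 on the minus strand for Cxcl10, chr5:30012864-30013163 on the plus strand for Il6 and chr11:54962891-54963190 on the minus strand for Tnip1, where 3 matches overlap.
Cxcl10: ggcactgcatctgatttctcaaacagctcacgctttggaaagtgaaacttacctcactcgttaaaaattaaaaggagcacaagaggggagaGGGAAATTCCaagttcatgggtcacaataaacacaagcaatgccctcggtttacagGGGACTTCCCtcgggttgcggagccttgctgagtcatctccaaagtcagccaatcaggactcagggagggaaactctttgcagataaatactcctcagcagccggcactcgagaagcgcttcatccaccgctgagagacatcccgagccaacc
Il6: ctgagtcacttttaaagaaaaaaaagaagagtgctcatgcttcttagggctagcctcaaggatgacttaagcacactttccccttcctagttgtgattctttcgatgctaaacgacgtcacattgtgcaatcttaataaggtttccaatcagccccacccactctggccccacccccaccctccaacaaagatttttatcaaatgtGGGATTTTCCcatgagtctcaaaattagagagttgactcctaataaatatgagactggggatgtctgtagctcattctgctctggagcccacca
Tnip1: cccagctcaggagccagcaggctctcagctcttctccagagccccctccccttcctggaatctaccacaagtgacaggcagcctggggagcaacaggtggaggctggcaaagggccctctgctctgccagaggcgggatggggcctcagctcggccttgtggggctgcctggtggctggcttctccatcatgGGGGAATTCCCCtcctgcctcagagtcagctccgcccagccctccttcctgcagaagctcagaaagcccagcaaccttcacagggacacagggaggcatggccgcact
A match was found in the first listed promoter of 5 of the 7 genes, namely these 3, Ccl20 and Ptx3, and in 1031 of 27025 promoters of the table (3.81%). Saa3 and Csf2 had none in this window, which says nothing of more distant sequence. The list was drawn up from genes that NF-kB induces, so these matches describe the list and not the response to treatment. No share is given for list members that did not pass 2-fold.

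The 3 FAP groups are set side by side for the same treatment contrast. The NF-kB list had a median log2 ratio of 0.52 in activated, 0.76 in parenchymal and 1.11 in progenitor FAPs, where all genes had -0.01, -0.08 and -0.04. It passed 2-fold upward with 7 of 38 genes in activated FAPs, 15 of 37 in parenchymal FAPs and 20 of 36 in progenitor FAPs. All genes passed upward at 0.392%, 0.990% and 0.933% in the same order; the difference between the groups was not tested. Single genes did not all follow that order. The ratio of Cxcl10 was 3.20 in activated, 14.3 in parenchymal and 7.29 in progenitor FAPs, from vehicle levels of 133, 91.2 and 107 CPM that lay closer together than the LNP-CRISPR levels of 426, 1305 and 778 CPM. Rnd1, a small GTPase that alters cell adhesion, had ratios of 3.62, 10.0 and 6.07. Within vehicle muscle the NF-kB list had a median log2 ratio of activated over progenitor FAPs of 0.29, with 30 of 37 genes higher. Within LNP-CRISPR muscle that median was -0.16, with 29 of 38 genes lower. Over parenchymal FAPs the medians were 0.0066 with vehicle and -0.42 with LNP-CRISPR. The part of these vehicle levels in the treatment ratios was not tested.

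**Figure D4:**
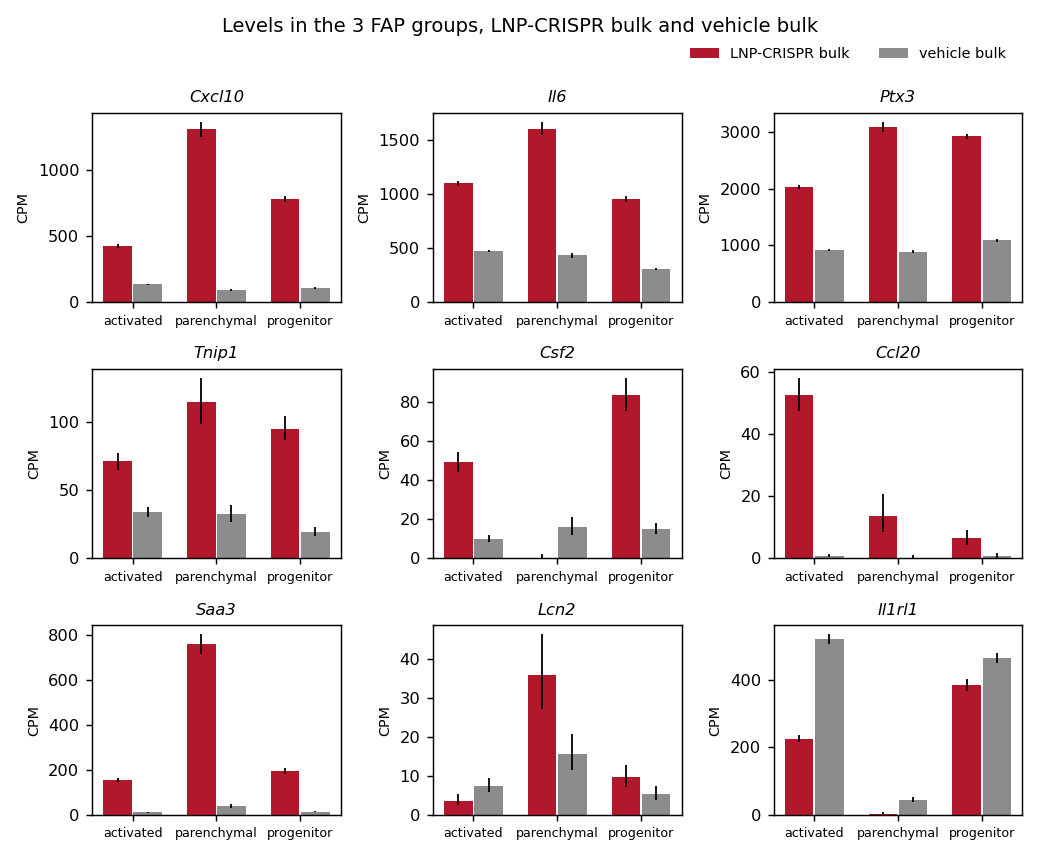
Level in CPM (y axis, from 0) of the 9 NF-kB list genes past 2-fold in activated FAPs, in activated, parenchymal and progenitor FAPs (x axis), with LNP-CRISPR bulk in red and vehicle bulk in grey; black lines are 95% counting intervals. Cxcl10, Il6, Ptx3 and Tnip1 are higher with LNP-CRISPR in all 3 groups, and Il1rl1 is lower.

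Inflammatory transcripts also varied with Cas9 among activated FAPs of LNP-CRISPR muscle. The NF-kB list summed to 22097 CPM in the 58 cells with least Cas9 per UMI, 25200 CPM in the middle 58 and 28996 CPM in the 57 with most. Cxcl10 stood at 156, 467 and 768 CPM in the same order. Ccl2 (3421, 3263 and 4817 CPM) and Cxcl5 (1505, 1236 and 1669 CPM) were lowest in the middle cells. Over the 173 cells Cas9 per UMI correlated with the list at a Spearman rho of 0.19. Depth moved against Cas9 per UMI, with median UMIs of 46016.5, 40450.5 and 27707, and the part of depth was not tested. In vehicle muscle, where no cell had Cas9, the list summed to 15576 CPM in the 78 activated FAPs of lowest score, 16565 CPM in the middle 77 and 19235 CPM in the 77 of highest score. Split by score in the same way, activated FAPs of LNP-CRISPR muscle had 25085, 25148.5 and 24854 CPM, with no such rise.

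Interferon response genes were higher as a list and rarely singly. Of 38 measured members 30 had a ratio above 1, the median log2 ratio was 0.39, and without the highest cells it was 0.24. Ifit1, an antiviral RNA-binding protein, was at 34.6 CPM in LNP-CRISPR and 11.7 CPM in vehicle activated FAPs (ratio 2.97), and Rsad2, the antiviral enzyme viperin, at 13.0 and 6.28 CPM (2.07). Gbp5, an interferon-induced GTPase outside the list, was at 18.8 and 5.58 CPM (3.37). The members Isg15, Ifitm3 and B2m hardly differed, with ratios of 0.956, 0.988 and 1.17. The list medians in parenchymal and progenitor FAPs were 0.11 and 0.15, and 0.12 and 0.10 without the highest cells. Members past 2-fold upward were 2 of 38 in activated, 4 of 33 in parenchymal and 5 of 39 in progenitor FAPs. All genes passed upward at 0.392%, 0.990% and 0.933% in the same order.

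**Figure D5:**
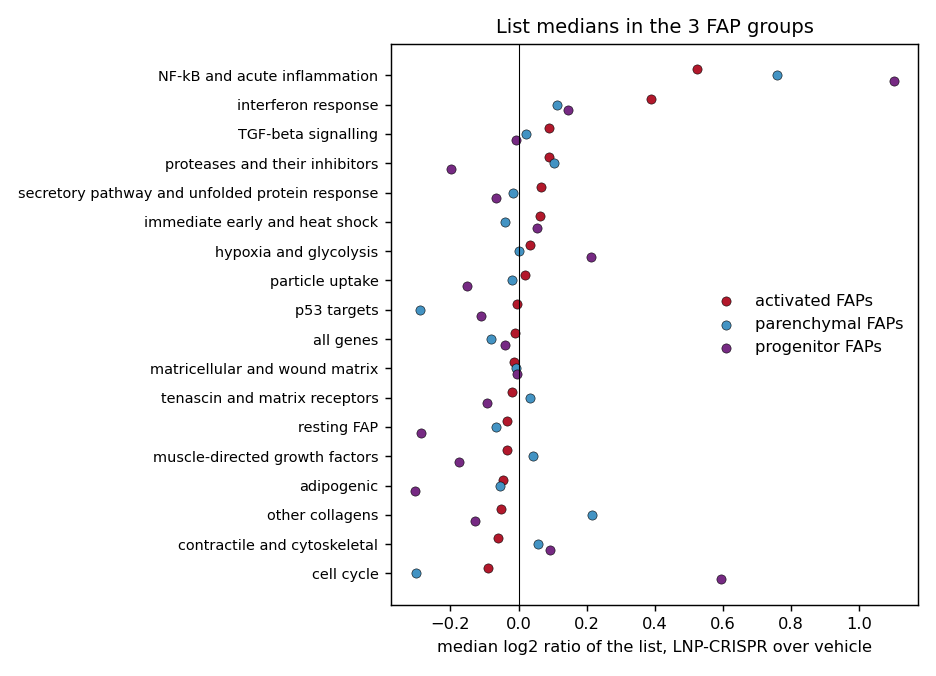
Median log2 ratio, LNP-CRISPR over vehicle (x axis), of each gene list and of all genes measured (rows), in activated, parenchymal and progenitor FAPs (colours). In activated FAPs the NF-kB list lies at 0.52 and the interferon list at 0.39, and the other lists lie between -0.09 and 0.09.

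The lists that differed between activated and parenchymal FAPs had medians near 0 between the treatments. The median log2 ratio was -0.01 for matricellular genes, -0.06 for contractile genes, 0.03 for hypoxia and glycolysis, -0.03 for resting FAP genes and -0.09 for the cell cycle, with 0 of 32 genes past 2-fold. In progenitor FAPs the cell cycle list had a median of 0.60. The p53 targets, which a DNA damage response raises, had a median of -0.00 with 0 of 28 past 2-fold, and Cdkn1a, a p53-induced inhibitor of the cell cycle, had a ratio of 1.36 (1.22 to 1.52). Medians were 0.02 for particle uptake, 0.07 for the secretory pathway, 0.06 for immediate early and heat shock genes, 0.09 for TGF-beta signalling, 0.09 for proteases, -0.02 for matrix receptors, -0.03 for growth factors, -0.05 for adipogenic genes and -0.05 for other collagens.

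Single matrix and growth factor genes were exceptions. Col11a1, a fibrillar collagen, was at 12.6 CPM in LNP-CRISPR and 3.99 CPM in vehicle activated FAPs (ratio 3.15), against ratios of 0.686 in parenchymal and 0.501 in progenitor FAPs. Areg, an EGF receptor ligand, was at 5.13 and 15.0 CPM (0.341). Spp1, which encodes osteopontin, stood at 0.157 of its vehicle level. In vehicle muscle 1 cell held 1291 of 1894 Spp1 UMIs, and without the highest cells the ratio was 0.365. It was detected in 37.0% of LNP-CRISPR and 19.4% of vehicle cells, so the share of cells and the level ran in opposite directions. Desmin (Des), an intermediate filament gene, was at 5.68 and 12.8 CPM (0.445).

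Of the 12 higher genes that the naming rule took, Slc10a6, a steroid sulfate transporter, was at 45.4 CPM in LNP-CRISPR and 19.1 CPM in vehicle activated FAPs (ratio 2.37), with ratios of 1.39 in parenchymal and 1.11 in progenitor FAPs. Adamts8, a metalloprotease, had a ratio of 2.71 from 52 and 26 UMIs, and Tubgcp6, of the gamma-tubulin complex, 2.28 from 47 and 28 UMIs. The lower genes had few UMIs throughout. Among them were Hotairm1 (0.144), P2ry10b (0.252), the water channel Aqp1 (0.265), Polr3g (0.277), Ccnf (0.288), Iqcn (0.347), Cgref1 (0.366), Xndc1 (0.374), the iron carrier Trf (0.379), Fignl1 (0.412) and Rtl3 (0.421). Trf had the most UMIs of these, 101 with LNP-CRISPR and 361 with vehicle.

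Another 3 of the 12 higher genes are best known from blood cells. The neutrophil genes S100a8 and S100a9 were at 20.5 and 22.3 CPM in LNP-CRISPR and 3.79 and 5.58 CPM in vehicle activated FAPs. The 5 neutrophil markers summed to 54.6 CPM with LNP-CRISPR and 18.9 CPM with vehicle in these cells, and to 11040 and 2266 CPM in leukocytes of the same libraries, a difference in the same direction whose part here was not tested. No single activated FAP held more than 5 UMIs of S100a8. The alpha-globin gene Hba-a2 had 252 UMIs in 39.3% of activated FAPs with LNP-CRISPR (34.1 CPM) and 0 UMIs with vehicle, at least 114-fold more when set against 3 counts. The other globin genes did not follow it. In the LNP-CRISPR and vehicle libraries Hba-a1 had 5 and 6 UMIs, Hbb-bs 4 and 4, and Hbb-bt 2 and 1. Hba-a2 varied with Cas9 instead, at 3.08 CPM in the 58 activated FAPs with least Cas9 per UMI, 9.74 CPM in the middle 58 and 109 CPM in the 57 with most. Whether these UMIs come from the globin gene or from the added Cas9 transcript was not tested, so they are not read as blood cell RNA.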

How the data were processed

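Single cells of muscle were captured with the 10x Chromium 3' kit, version 3.1, per the labels' protocols. The authors deposited raw UMI counts per gene and barcode. Build mm10 and Cell Ranger 7.0.1 are listed in the submitters' processing notes, whereas cellranger 5.0.1 wrote the matrices, per the file headers. The table of 32286 features holds 32285 mouse genes and an added Cas9 sequence. Kept barcodes had at least 200 genes and at most 20% mitochondrial UMIs, and 1152 LNP-CRISPR and 1204 vehicle bulk barcodes passed, with median depths of 16052.5 and 22503.5 UMIs.

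Counts were summed per library and group. Poisson intervals were used for levels, exact binomial ones for shares and conditional binomial ones for ratios, with a pseudocount of 0.5 UMIs in log2 ratios. No differential test was possible with 1 library per group, and genes past 2-fold are a description. Shares of cells with a gene also hold free RNA, which was not removed. Scrublet in scanpy 1.11.5 called 3 LNP-CRISPR and 6 vehicle barcodes as doublets (0.260% and 0.498%), too few to count as having worked, so none was removed. Python 3.11.15, numpy 2.4.6, scipy 1.17.1, pandas 2.3.3 and matplotlib 3.10.9 were used, and the calls were tested on simulated data.

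The 17 gene lists and the cells were chosen with earlier results of these data known. Of 506 list entries 504 are among the features, and the other 2 were not used here. Between the treatments the 12 higher and 12 lower genes with the largest fold by the least extreme estimate were named. They had to be seen in at least 10% of cells where higher. Between activated and parenchymal FAPs the 12 higher and 8 lower genes with the largest fold in the less extreme library were named, without that minimum. From each list the members past 2-fold and the 4 most abundant were named. A few genes that the rule takes are not reported here. Predicted genes and ribosomal and mitochondrial genes were left out. Alternatives were other filters, thresholds, thinning, weights, minimum counts, folds, scaling and left-out cells. Limits on depth (15000 to 40000 UMIs) and on cycling FAPs were added after seeing the data.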

Additional observations from a re-analysis of the deposited data

Results flagged for a closer look

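Lcn2 differed in direction between FAP groups, with a log2 ratio of LNP-CRISPR over vehicle of -1.02 in activated FAPs (27 and 75 UMIs) and 1.19 in parenchymal FAPs (58 and 49 UMIs). Aqp1 had a log2 ratio of -1.89 in activated FAPs (26 and 133 UMIs) and 1.47 in progenitor FAPs (57 and 33 UMIs). Neither difference was tested, since each group is 1 library. In the kit libraries, which no comparison used, the 4 LNP-CRISPR barcodes that met the rule held 30 Cas9 UMIs among 84421 UMIs, while 0 vehicle barcodes met it.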

How the results depend on the processing

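Of 96 recomputed main results 54 kept their value within the spread used, 42 moved and 0 turned round; for named genes and list members past 2-fold 2283 of 2662 values held, 340 moved and 39 turned round. The Cas9 level of activated FAPs (1074 CPM) became 1046 with at least 500 genes and at most 10% mitochondrial UMIs, 943 and 1205 CPM at score thresholds of 3 and 1, 1447 after thinning to 10000 UMIs, 1142 without FAPs carrying other types' markers, 1518 with cells weighed equally, 958 without the highest cell, 1431 within 15000 to 40000 UMIs and 1234 without cycling FAPs. Its ratio to parenchymal FAPs (0.424) became 0.366 and 0.526 at thresholds of 3 and 1, 0.553 thinned, 0.400 without other types' markers, 0.648 weighed equally, 0.460 without the highest cell, 0.678 within the depth limits and 0.496 without cycling FAPs. Genes higher with LNP-CRISPR (42) became 78 with equal weights, 234 at 1.5-fold, 14 with a minimum of 200 UMIs and 997 with none; genes lower (67) became 41 thinned, 115 with equal weights, 289 at 1.5-fold, 11 with 200 UMIs and 1126 with none. Genes higher in activated than parenchymal FAPs (306) became 88 thinned, 110 without other types' markers, 754 at 1.5-fold, 146 with 200 UMIs, 469 with no minimum, 26 within the depth limits and 74 without cycling FAPs. Genes lower (184) became 53, 104, 538, 92, 751, 27 and 108 in that order, and 115 with equal weights. The NF-kB median (0.52) was 0.37 without other types' markers and 0.46 to 0.70 otherwise. The share ratio stayed between 1.16 and 1.32. Lcn2 between treatments turned to log2 ratios of 0.17 at a threshold of 3, 1.91 thinned and 0.0066 without other types' markers. In the same setting Mmp9 and Top2a turned to -0.34 and -0.093 against parenchymal FAPs with LNP-CRISPR. Within the depth limits Aqp1 and Inhba turned to 1.01 and 0.35 between treatments, and against parenchymal FAPs values with LNP-CRISPR turned to -1.25 for Hmmr, -0.52 for Ube2c, -2.20 for Top2a, -0.15 for Cdk1, -0.19 for Ccnb2, -0.039 for Mcm3, -0.062 for Mcm5, -0.67 for Rrm1, -0.79 for Tyms, -0.13 for Fabp5 and 0.0066 for Fos, and with vehicle to 0.073 for Apoe. Without cycling FAPs the log2 ratios to parenchymal FAPs turned, with LNP-CRISPR, to -0.035 for Bub1, -3.20 for Hmmr, -1.62 for Ccnb1, -0.24 for Cenpa, -0.97 for Ube2c, -0.035 for Kif11, -0.22 for Top2a, -1.92 for Ccnb2, -0.26 for Rrm1 and -0.32 for Tyms, and with vehicle to -0.45 for Cenpf, -1.84 for Ccnb1, -3.43 for Cenpe, -1.10 for Kif2c, -0.74 for Cdc20, -0.72 for Cenpa, -1.84 for Ccna2, -0.73 for Rrm1, -0.40 for Rrm2 and -0.17 for Hmgb2; this setting leaves out the cells that carry such genes. The cause of the other moves was not tested. No paired analysis was possible because each group holds 1 library. Genes under about 50 UMIs cannot be compared at this depth.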

Other observations

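Hba-a2 varied with Cas9 in the LNP-CRISPR library. Activated FAPs held 31.5 Cas9 UMIs per Hba-a2 UMI (27.8 to 35.9), against 25.6 in parenchymal FAPs (21.9 to 30.2), 26.8 in progenitor FAPs (24.3 to 29.8) and 25.4 in leukocytes (21.9 to 29.7). S100a8 did not vary so, at 17.5 CPM in the 58 activated FAPs with least Cas9 per UMI, 22.7 CPM in the middle 58 and 22.3 CPM in the 57 with most. Hba-a2 and Cas9 correlated across these 173 cells of 1 library with a Spearman rho of 0.65. The source of the Hba-a2 counts was not tested.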
